A study of Homo sapiens with 6 samples.

Results

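HMGA1, HMGA2, IGF2BP2, IGF2BP3, MYC and ARID3B are 6 of the 11679 genes measured after knockdown of the mRNA export factor ALYREF. They were taken by symbol from the authors' deposited tables. The genes were chosen for the way they moved in these comparisons, so their fold changes are given below as a description, without a test. The cells were 786-O, an established clear cell renal carcinoma line that lacks functional VHL. Each of the 3 groups had 2 libraries: cells transfected with ALYREF siRNA5, cells transfected with ALYREF siRNA8, and cells transfected with a non-targeting control siRNA (NTC). All groups were split at 24 h and harvested at 48 h after transfection, and no group was left without siRNA. Both comparisons share the NTC libraries, and nothing in the labels says that libraries of a group came from separate cultures, so the standard errors (SE) may reflect technical spread only.

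HMGA1 and HMGA2 are architectural chromatin proteins that bind AT-rich DNA through AT-hook motifs. HMGA2 is abundant in the embryo, nearly silent in most adult tissues and expressed again in many tumours. IGF2BP2 and IGF2BP3 bind mRNAs, many of them carrying m6A, and are known to stabilise or store them. MYC is a transcription factor of growth genes, and ARID3B is an AT-rich DNA-binding protein related to ARID3A. All of them appear among textbook targets of the let-7 microRNAs, which pair through their seed with sites in 3′ UTRs and repress the transcript, while LIN28 proteins block let-7 maturation. MicroRNAs were not measured here.

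The let-7 family is shown first because its seed defines the sites described in the 6 genes. RefSeq (GRCh38.p14) held 9 distinct mature 5p sequences of the family, each 22 nt long. Capitals mark the seed, bases 2 to 8, which was the same in all of them.
hsa-let-7a-5p: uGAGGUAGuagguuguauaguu
hsa-let-7b-5p: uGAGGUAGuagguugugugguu
hsa-let-7c-5p: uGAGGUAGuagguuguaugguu
hsa-let-7d-5p: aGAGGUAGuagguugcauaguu
hsa-let-7e-5p: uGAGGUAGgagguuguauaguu
hsa-let-7f-5p: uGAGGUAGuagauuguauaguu
hsa-let-7g-5p: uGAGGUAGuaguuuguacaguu
hsa-let-7i-5p: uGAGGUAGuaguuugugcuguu
hsa-miR-98-5p: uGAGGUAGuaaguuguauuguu

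The complement of the seed, CTACCTC, was searched on the mRNA strand of the 3′ UTR of the principal transcript of each gene (GENCODE 29, GRCh38). The match with a following A, CTACCTCA, contains CTACCTC, and the shorter TACCTCA overlaps both. Of 10914 other genes with a 3′ UTR, 10.1% held CTACCTC. In the 6 genes, 8 sites held it, and these are shown 5′ to 3′ with the seed match in capitals, because their number differs so much between the genes. A match is a description of letters, not evidence of binding.
HMGA1 (chr6:34245830-34245851, plus strand): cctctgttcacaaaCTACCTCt
HMGA2 (chr12:65963299-65963320, plus strand): ccaacgttcgatttCTACCTCa
HMGA2 (chr12:65964534-65964555, plus strand): cccactactcaataCTACCTCt
HMGA2 (chr12:65964946-65964967, plus strand): tgacttgcaaagacCTACCTCc
HMGA2 (chr12:65965799-65965820, plus strand): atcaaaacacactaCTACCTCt
IGF2BP2 (chr3:185644220-185644241, minus strand): acacacagaagaagCTACCTCa
IGF2BP3 (chr7:23311795-23311816, minus strand): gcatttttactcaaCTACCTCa
ARID3B (chr15:74598102-74598123, plus strand): atttcaataaacctCTACCTCt

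On GRCh38, HMGA1 spans chr6:34236873-34246231 and HMGA2 chr12:65824131-65966295 on the plus strand, with 5 exons each in the transcript used. IGF2BP2 spans chr3:185643739-185825056 with 16 exons and IGF2BP3 chr7:23310209-23470467 with 15 exons, both on the minus strand, and ARID3B spans chr15:74541177-74598131 on the plus strand with 9 exons. HMGA2 carried 4 of these sites, the first of them 21 nt after the stop codon and followed by an A. Counting TACCTCA as well, HMGA2 held 7 sites, ARID3B 5, IGF2BP2 2, and HMGA1 and IGF2BP3 1 each. The MYC 3′ UTR of 476 nt held none. The HMGA2 transcript is mostly 3′ UTR, 3003 of 4473 nt, against a coding sequence of 327 nt. Another annotated HMGA2 isoform, the one with the longest 3′ UTR, held neither CTACCTC nor TACCTCA, so the count depends on which isoform the cells make, and the tables do not separate isoforms.

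**Figure D1:**
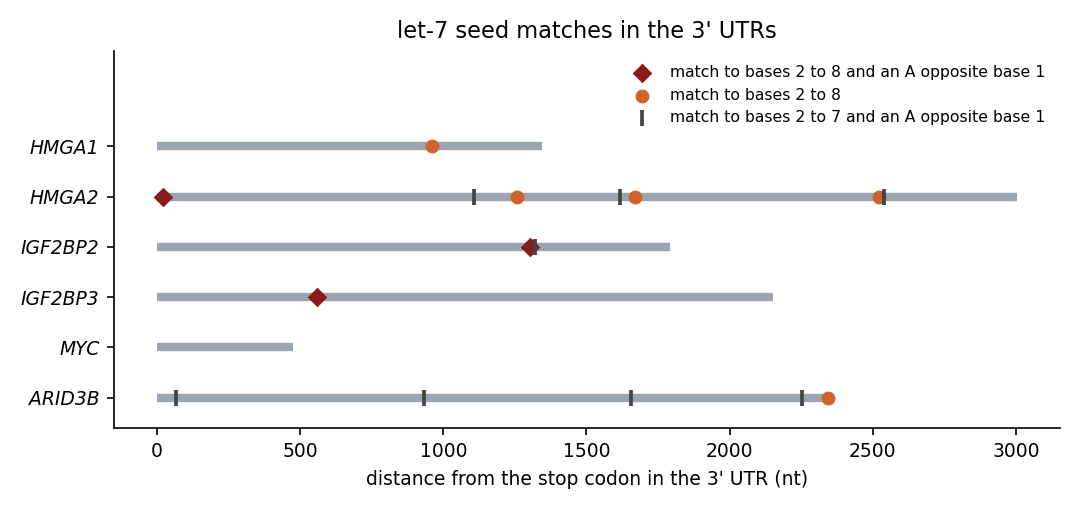
Map of let-7 seed matches along the annotated 3′ UTR (grey bar) of each gene; the x axis is the distance from the stop codon in nt, and symbols give the kind of match. HMGA2 holds 7 matches, ARID3B 5, IGF2BP2 2, HMGA1 and IGF2BP3 1 each, and MYC none.

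The authors' deposited tables give 1 mean per gene over all libraries and 1 log2 fold change per siRNA, and no value per library. The group means below were rebuilt from these 3 numbers, with an SE from the dispersion that the tables imply, and are in normalized counts. ALYREF itself had 437 with siRNA5, 604 with siRNA8 and 7711 in NTC cells, that is 5.67% and 7.83% of the NTC level. Over all genes the median mean was 459. Of the kidney lineage markers, PAX8 (mean 2354) and CDH6 (1410) were present. Of 13 markers of immune cells, endothelium and fibroblasts, 3 were listed, CD68 (202), COL1A1 (48.5) and PDGFRB (21.2). In RNA of bulk cultures, fewer cells making a transcript and less of it per cell cannot be told apart.

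With siRNA5, 3 of the 6 genes were called higher (HMGA2, IGF2BP3, MYC), 2 lower (HMGA1, IGF2BP2) and ARID3B was not called, by the authors' DESeq2 Wald test at an adjusted p under 0.05. With siRNA8 the same 3 were called higher and none lower. Among all genes, 46.4% were called with siRNA5 and 41.5% with siRNA8, and since the genes were chosen from these contrasts nothing is read from the counts. The median log2 fold change of the 6 genes was 0.22 with siRNA5 and 0.23 with siRNA8, against 0.01 over all genes in both comparisons. For the same reason nothing is read from these medians, and with siRNA5 the values ran from -1.38 (HMGA1) to 1.41 (HMGA2).

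**Figure D2:**
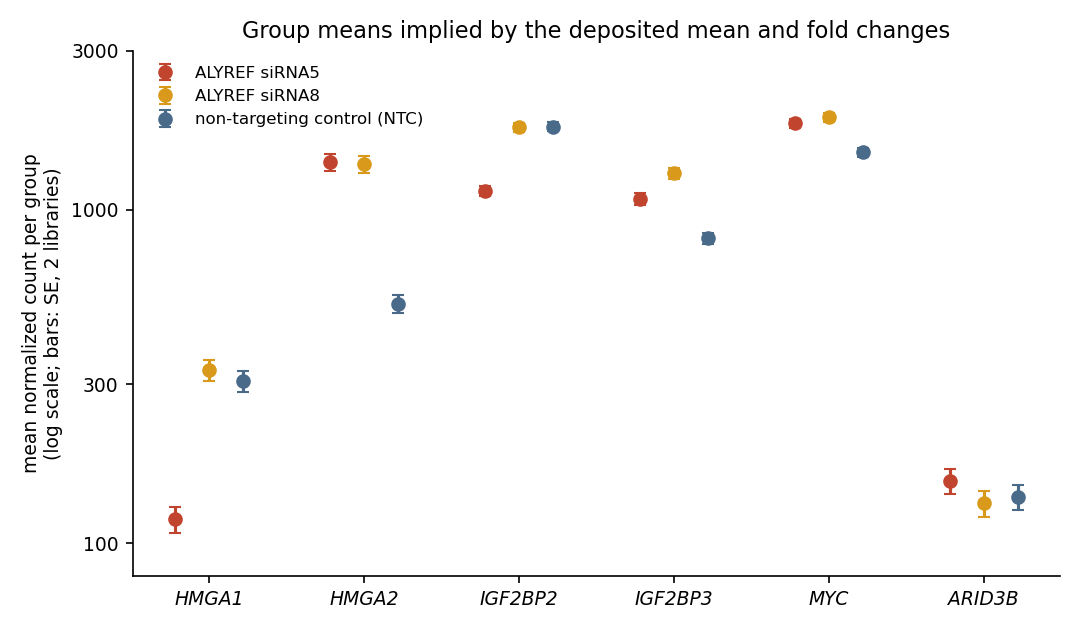
Mean normalized count (log axis) of each gene in siRNA5, siRNA8 and NTC cells, rebuilt from the deposited values; bars are SE for 2 libraries. HMGA2 is high with both siRNAs, at 1389 and 1371 against 522 in NTC cells, while HMGA1 and IGF2BP2 are low with siRNA5 only.

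HMGA2 had the largest rise of the 6 genes. It had 1389 ± 82.1 normalized counts with siRNA5 and 1371 ± 81.1 with siRNA8, against 522 ± 33.4 in NTC cells (SE, n = 2 each). Both knockdown groups lay well above the control, and they lay within 1 SE of each other. Per the authors' deposited tables, its log2 fold change was 1.41 (SE 0.126) with siRNA5 and 1.39 (SE 0.126) with siRNA8, which is 2.66-fold and 2.62-fold. Only 67 genes changed by as much or more upward with siRNA5, and 75 with siRNA8. The difference of the siRNAs, siRNA5 minus siRNA8, was 0.02 (95% interval -0.33 to 0.37). This interval, like those of the other differences, takes no account of the shared controls, so its SE is an upper bound.

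The spread behind the HMGA2 value was wide for its level. The dispersion corresponds to a spread between libraries, beyond counting noise, of 7.91% of a group mean. Among 1289 genes of like level, up to 25% above or 20% below the HMGA2 mean, the median was 4.08%. Of these, 99.5% had a smaller spread. Which library or group carries it cannot be read from the tables. By the same measure HMGA1 stood at 8.35% against a median of 7.17%, and 92.9% of 1114 genes of like level had a smaller spread. IGF2BP3 stood at 4.46% against 4.12%, and ARID3B at 8.90% against 9.35%.

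HMGA1, the paralog, was lower with siRNA5 and not with siRNA8. It had 118 ± 10.4 normalized counts with siRNA5 and 330 ± 23.4 with siRNA8, against 306 ± 21.9 in NTC cells. With siRNA5 it stood at 38.5% of the NTC level, and with siRNA8 at 107.9%. Per the authors' deposited tables, the log2 fold change was -1.38 (SE 0.165) with siRNA5 and 0.11 (SE 0.143) with siRNA8, and 168 genes had a value at or under that of HMGA1 with siRNA5. The 95% interval with siRNA8 ran from -0.17 to 0.39. The difference, siRNA5 minus siRNA8, was -1.49 (SE 0.219), with an interval from -1.91 to -1.06. Of the 6 genes, HMGA1 and IGF2BP2 were called different between the siRNAs, where 32% of all genes were, and nothing is read from that count. With the covariance of the shared controls rebuilt, IGF2BP3 was called as well.

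The balance of the pair differed between the groups. HMGA2 made up 92.2% of the summed HMGA normalized counts with siRNA5 and 80.6% with siRNA8, against 63.0% in NTC cells. The sum was 1507 with siRNA5 and 1701 with siRNA8, against 829 in NTC cells. These shares follow normalized counts, in which the longer HMGA2 transcript weighs more.

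Counts per kilobase of transcript put the genes on 1 scale. MYC was highest in every group, at 769 with siRNA5, 801 with siRNA8 and 629 in NTC cells. HMGA2 had 311 ± 18.4 with siRNA5, 306 ± 18.1 with siRNA8 and 117 ± 7.47 in NTC cells. HMGA1 had 54.6 ± 4.80, 153 ± 10.8 and 142 ± 10.2 normalized counts per kilobase in the same order. In NTC cells HMGA1 thus stood above HMGA2, and in both knockdowns below it. The order in NTC cells rests on the transcript length chosen for each gene, 2159 nt for HMGA1 and 4473 nt for HMGA2. By normalized counts, HMGA2 was the higher in NTC cells too, at 522 against 306. With siRNA5, HMGA2 and IGF2BP2 (308 ± 10.5) did not differ beyond their SE, and with siRNA8, HMGA2 and IGF2BP3 (303 ± 11.3) did not. ARID3B was lowest in every group, at 36.0, 30.8 and 32.3 per kilobase with siRNA5, with siRNA8 and in NTC cells.

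The IGF2BP paralogs also parted. IGF2BP3, an oncofetal protein that is absent from most adult tissues, had 1079 ± 41.2 normalized counts with siRNA5 and 1287 ± 47.9 with siRNA8, against 822 ± 32.9 in NTC cells. Per the authors' deposited tables, its log2 fold change was 0.39 (SE 0.080) with siRNA5 and 0.65 (SE 0.079) with siRNA8. Both siRNA groups were above NTC, with siRNA8 the higher, at a difference of -0.26 (95% interval -0.48 to -0.04) for siRNA5 minus siRNA8.

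IGF2BP2, the member of the family best known in adult tissues, had 1137 ± 38.8 normalized counts with siRNA5 and 1766 ± 56.2 with siRNA8, against 1778 ± 56.5 in NTC cells. It was at 64.0% of the NTC level with siRNA5 and at 99.4% with siRNA8. The authors' deposited tables give a log2 fold change of -0.64 (SE 0.068) with siRNA5 and -0.01 (SE 0.064) with siRNA8. The 95% interval with siRNA8 ran from -0.14 to 0.12. IGF2BP3 made up 48.7% of the IGF2BP2 and IGF2BP3 counts with siRNA5 and 42.2% with siRNA8, against 31.6% in NTC cells.

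MYC was higher by a small step with both siRNAs. It had 1818 ± 58.9 normalized counts with siRNA5 and 1896 ± 61.1 with siRNA8, against 1488 ± 49.6 in NTC cells. Per the authors' deposited tables, MYC had a log2 fold change of 0.29 (SE 0.067) with siRNA5 and 0.35 (SE 0.067) with siRNA8, or 1.22-fold and 1.27-fold. ARID3B was not called with either siRNA. It had 154 ± 13.1 with siRNA5, 132 ± 11.6 with siRNA8 and 138 ± 12 in NTC cells. Per the authors' deposited tables, its log2 fold change was 0.16 (SE 0.176) with siRNA5, with an interval from -0.19 to 0.50, and -0.06 (SE 0.178) with siRNA8, with an interval from -0.41 to 0.28.

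**Figure D3:**
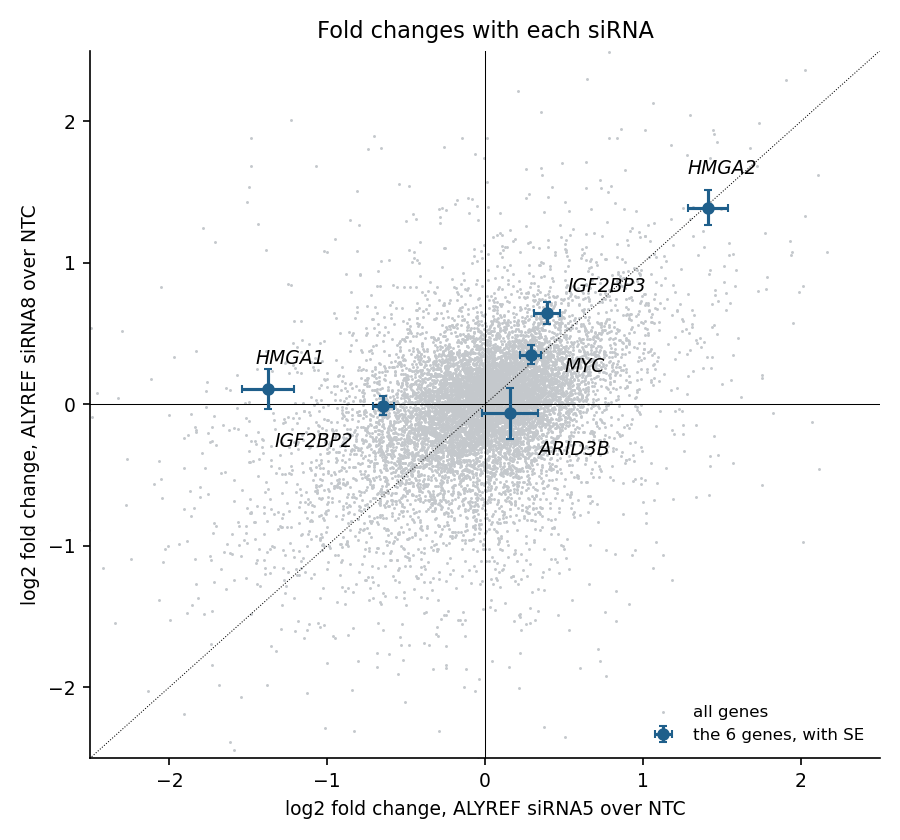
Log2 fold change with siRNA5 (x axis) against that with siRNA8 (y axis) for all genes (grey) and the 6 genes (blue, bars are SE); the comparisons share their controls. HMGA2 lies on the diagonal at 1.41 and 1.39, while HMGA1 (-1.38 and 0.11) and IGF2BP2 (-0.64 and -0.01) lie left of the vertical line and close to the horizontal line.

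The genes nearest to each member in the plane of both log2 fold changes were taken from genes with a mean of at least 200. SLC4A7, a bicarbonate transporter, was nearest to HMGA2 (1.38 and 1.23 with siRNA5 and siRNA8 per the authors' deposited tables), at a distance of 0.169, followed by ZBTB34 and CTHRC1. CDKN1A, the p21 cell cycle inhibitor, was nearest to HMGA1 (-1.24 and 0.22 per the authors' deposited tables), at 0.177, followed by VOPP1 and SNX12. KDM5C, an ARID-domain histone demethylase, was nearest to IGF2BP2 (-0.65 and -0.02 per the authors' deposited tables). KDM5C was followed by ABRAXAS1 and KIF24. Nearest to IGF2BP3, MYC and ARID3B were RNF217, POLE4 and ARPC5L. This likeness rests on 2 comparisons with shared controls.

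Family relatives were followed where listed. ARID3A had 0.58 (SE 0.219) with siRNA5, called higher, and 0.42 (SE 0.220) with siRNA8, not called, per the authors' deposited tables, at a mean of 89.7. MYCL was near the floor of the tables, at a mean of 14.5, and was not called in either comparison. IGF2BP1, MYCN, ARID3C, LIN28A and LIN28B were looked up by symbol and were not among the measured genes.

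Some reads of these genes could belong elsewhere. Of 42-nt windows of the transcript, which is the read length, 23.2% in ARID3B, 13.3% in IGF2BP2, 12.4% in HMGA1 and 12.1% in IGF2BP3 recur in transcripts of other genes, against 0.429% in HMGA2 and none in MYC. For HMGA1 these include HMGA1P pseudogenes. Genes on the opposite strand overlap HMGA2 (RPSAP52), IGF2BP2 (IGF2BP2-AS1) and IGF2BP3 (MALSU1). MALSU1 had log2 fold changes of 0.15 with siRNA5 and 0.18 with siRNA8 per the authors' deposited tables and was not called. The labels name a directional kit, and whether counting used strand is not stated there.

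Most of the other textbook let-7 targets rose with siRNA5. Of 38 listed genes, members left out, 29 rose with siRNA5 (76.3%), 2 fell and 7 had no call, against 24.4% of all genes called higher and 22% called lower. The median log2 fold change was 0.42, against 0.01 over all genes. With siRNA8, 21 rose (55.3%), 9 fell and 8 had no call, with a median of 0.19, against 21% of all genes called higher and 20.5% lower. Tested against a log2 change within 0.1, the siRNA8 rises numbered 12, against 22 with siRNA5. Among the 25 list genes with a mean of at least 500, 19 rose with siRNA5 and 12 with siRNA8. At that level 1951 of all genes were higher with siRNA5 and 1657 with siRNA8. The shares of all genes given above use neither that null nor that filter. The list also had the higher median level, 690 normalized counts against 501 over all genes with a 3′ UTR, members left out. The list was chosen with earlier results of these data known, and no list test was made.

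Several of its genes were large movers. CTHRC1, a secreted matrix protein, had log2 fold changes of 1.07 (SE 0.146) with siRNA5 and 1.28 (SE 0.144) with siRNA8 per the authors' deposited tables. TGFBR1, the type I receptor of TGF-beta, stood at 1.30 (SE 0.0857) for siRNA5 and 0.38 (SE 0.0892) for siRNA8 per the authors' deposited tables. EIF4G2, a translation factor, fell with both, at -0.12 (SE 0.0361) for siRNA5 and -0.52 (SE 0.0363) for siRNA8 per the authors' deposited tables. THBS1, an anti-angiogenic matrix protein, and CDK6, a G1 kinase, are among the 9 that fell with siRNA8, at -1.53 and -1.18, while both rose with siRNA5, at 0.83 and 0.37, per the authors' deposited tables; they are named after their values were seen.

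**Figure D4:**
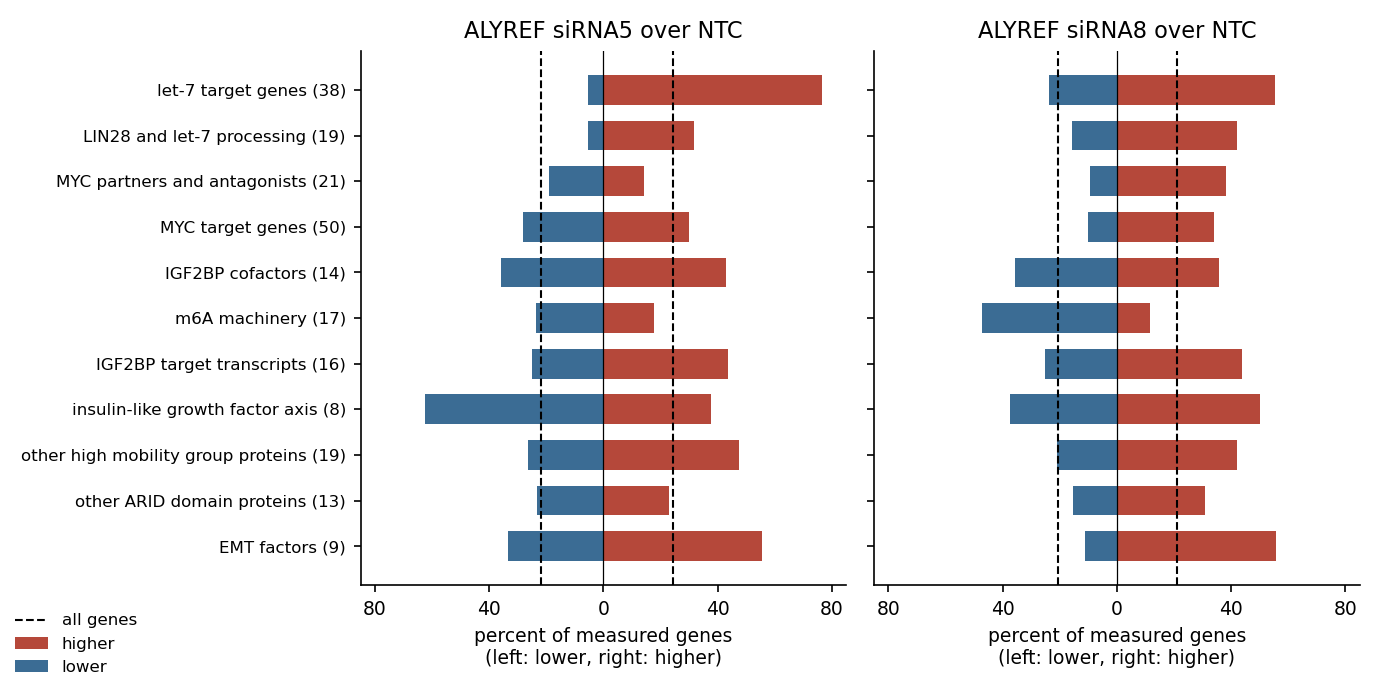
Percent of measured genes of each list called lower (left, blue) or higher (right, red) with siRNA5 and siRNA8, with the number measured in parentheses; dashed lines mark all genes. The let-7 target list reaches 76.3% higher with siRNA5 and 55.3% with siRNA8.

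The seed match was also read over all genes. With siRNA5, 29.1% of 1097 genes with CTACCTC rose, against 25.1% of genes without it, at medians of 0.04 and 0.01. With siRNA8 the shares were 23.3% and 21.8%. Other features of the UTR also moved with the siRNA5 result. The list had a median 3′ UTR of 2400 nt, against 1181 nt over all genes, and 50.0% of the list held the AU-rich heptamer TATTTAT, against 34.8% of all genes. Of the 4128 genes, members left out, whose 3′ UTR length lay between the quartiles of the list, 28.7% rose with siRNA5 and 23.4% with siRNA8. With siRNA5, 35.0% of genes with TATTTAT rose, against 20.4% of those without, and with siRNA8 24.4% and 20.7%. Among genes with TATTTAT, 35.6% of those with CTACCTC as well rose with siRNA5 and 34.9% of those with TATTTAT alone; without TATTTAT the shares were 21.9% with CTACCTC and 20.3% with neither. The part of each feature in the result of the list was not tested. Within the list, in a split chosen after seeing the data, 24 of 29 genes with CTACCTC rose with siRNA5 and 5 of 9 without it. Most of those without CTACCTC held the shorter match TACCTCA, so the split does not set a let-7 match against none.

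**Figure D5:**
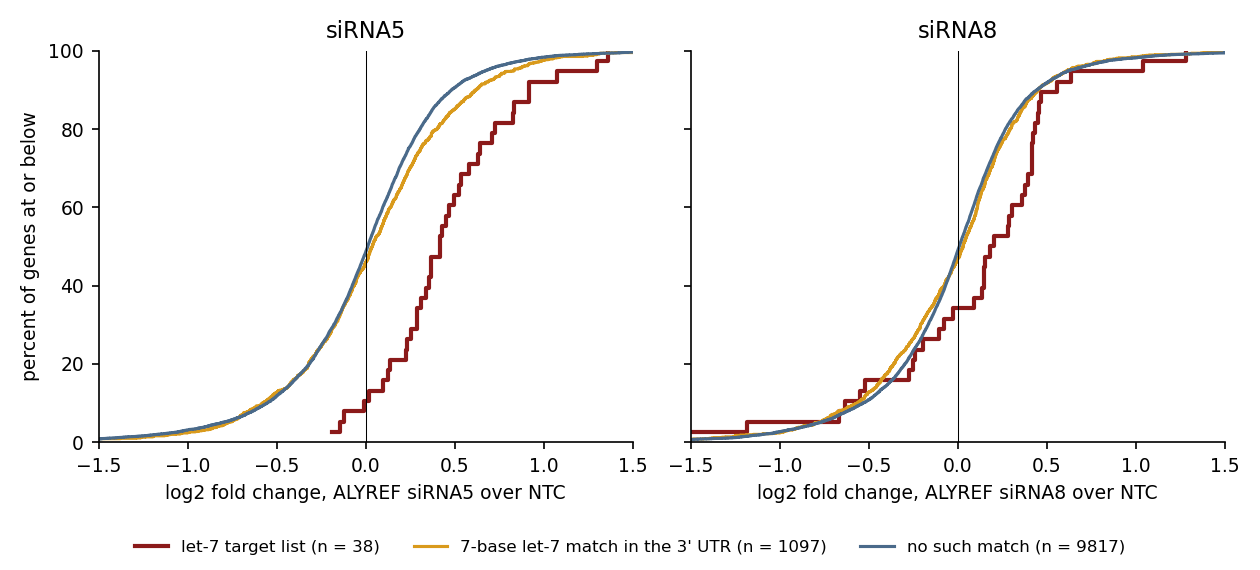
Cumulative percent of genes (y axis) at or below each log2 fold change (x axis) with siRNA5 and siRNA8, members left out. Curves are the let-7 target list (38 genes), genes with the 7-base match CTACCTC (1097) and genes without CTACCTC (9817). The list genes are also in the other curves, 29 with CTACCTC and 9 without, and genes without CTACCTC can hold TACCTCA. The median of the list is 0.42 with siRNA5 and 0.19 with siRNA8, where its lower tail crosses the other curves. Genes with CTACCTC lie close to those without it.

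The strings of 7 letters whose presence in the 3′ UTR went with the lowest fold changes were also looked up in the 6 genes, after 3′ UTR length and GC content were taken out. By that ranking the lowest with siRNA5 was AACGCTG, in 2.97% of genes, and the lowest with siRNA8 was CTAGAAA, in 15.5%, followed by ACTAGAA, in 11.3%. None of the 6 genes held AACGCTG or the next string, ACGCTGA, in the 3′ UTR, though HMGA2 held AACGCTG elsewhere in its transcript. Of the siRNA5 strings ranked 3 to 5 from the lowest, AAACGCT was in the 3′ UTR of HMGA2 and ACGCTGC in that of IGF2BP3. TAACGCT was in none of the 6 genes. Both siRNA8 strings were present in the 3′ UTR of HMGA2. The part of these strings in the fold changes of the 6 genes was not tested. Counted from the highest fold changes down, the let-7 string CTACCTC ranked 4001 with siRNA5 and 4135 with siRNA8 of 15207, at mean differences in log2 fold change of 0.02 and 0.01.

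Genes of LIN28 and let-7 processing were read as a further list, which shares DICER1 with the let-7 target list. It holds genes that make or use let-7 together with genes that act against it, so its counts give no direction for let-7. With siRNA5, 6 of 19 listed genes rose and 1 fell, at a median of 0.10. With siRNA8, 8 rose and 3 fell, at a median of 0.12. As shares this is 31.6% higher and 5.26% lower with siRNA5, where all genes had 24.4% and 22%, and 42.1% higher and 15.8% lower with siRNA8, where all genes had 21% and 20.5%. AGO2, the slicing Argonaute, had 0.83 (SE 0.088) with siRNA5 and 0.50 (SE 0.089) with siRNA8 per the authors' deposited tables. AGO1 had -0.65 (SE 0.105) and -0.62 (SE 0.104) per the authors' deposited tables, and DGCR8, the partner of DROSHA, 0.66 (SE 0.069) and 0.27 (SE 0.070).

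The MYC lists held genes that moved in both directions. Of 50 MYC target genes, 15 rose and 14 fell with siRNA5 at a median of -0.02, and 17 rose and 5 fell with siRNA8 at a median of 0.11, against 0.01 over all genes in both. The shares were 30% higher and 28% lower with siRNA5, beside 24.4% and 22% of all genes, and 34.0% higher and 10.0% lower with siRNA8, beside 21% and 20.5% of all genes. HK2, the first glycolytic kinase, had 1.01 (SE 0.072) and 0.78 (SE 0.073), and DCTPP1, a nucleotide pool enzyme, -0.28 (SE 0.060) and -0.47 (SE 0.061), with siRNA5 and siRNA8 per the authors' deposited tables. Of 21 MYC partners and antagonists, 3 rose and 4 fell with siRNA5 (median 0.01), and 8 rose and 2 fell with siRNA8 (median 0.00), which is 14.3% higher and 19.0% lower with siRNA5 and 38.1% higher and 9.52% lower with siRNA8. MAX, the obligate partner of MYC, rose with both, at 0.39 (SE 0.107) and 0.44 (SE 0.106) per the authors' deposited tables.

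The partners of the IGF2BP proteins split in both directions. Of 14 cofactors, 6 rose and 5 fell with siRNA5 (median 0.06) and 5 rose and 5 fell with siRNA8 (median 0.03). The shares were 42.9% higher and 35.7% lower with siRNA5, and 35.7% each way with siRNA8. Among all genes 24.4% were higher and 22% lower with siRNA5, and 21% higher and 20.5% lower with siRNA8. FMR1, the fragile X RNA-binding protein, had 1.02 (SE 0.064) with siRNA5 and 0.71 (SE 0.064) with siRNA8, and HNRNPL had -0.67 (SE 0.046) and -0.11 (SE 0.044), per the authors' deposited tables. Among 17 m6A writers, erasers and readers, 3 rose and 4 fell with siRNA5, and 2 rose and 8 fell with siRNA8, at a median of -0.05 with each. That is 17.6% higher and 23.5% lower with siRNA5, and 11.8% higher and 47.1% lower with siRNA8. RBM15, an adaptor of the methyltransferase, had 1.55 (SE 0.112) for siRNA5 and 1.06 (SE 0.113) for siRNA8, and the reader YTHDC2 -0.34 (SE 0.090) and -0.54 (SE 0.090), per the authors' deposited tables. Of 16 transcripts known as IGF2BP targets, 7 rose and 4 fell with each siRNA, at medians of 0.07 with siRNA5 and 0.03 with siRNA8, or 43.8% higher and 25% lower.

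In the insulin-like growth factor axis, 3 of 8 genes rose and 5 fell with siRNA5, at a median of -0.49, and 4 rose and 3 fell with siRNA8, at 0.06. The shares of all genes beside which the counts of this and the next lists stand were 24.4% higher and 22% lower with siRNA5, and 21% higher and 20.5% lower with siRNA8. The axis had 37.5% higher and 62.5% lower with siRNA5, and 50.0% and 37.5% with siRNA8. IGFBP3, a secreted binding protein, had -0.79 (SE 0.117) and -0.88 (SE 0.117), and IGF1R, the receptor, 0.43 (SE 0.092) and 0.29 (SE 0.093), per the authors' deposited tables. Among 19 other high mobility group genes 9 rose and 5 fell with siRNA5 (median 0.12), and 8 rose and 4 fell with siRNA8 (median 0.13), or 47.4% and 26.3% with siRNA5 and 42.1% and 21.1% with siRNA8, with HMGN1 at 0.58 (SE 0.048) and 0.34 (SE 0.049) per the authors' deposited tables. Other ARID genes numbered 13, with 3 higher and 3 lower with siRNA5 (median -0.03) and 4 higher and 2 lower with siRNA8 (median -0.02). At 23.1% in each direction with siRNA5, the ARID list was near the share of all genes, and with siRNA8 it had 30.8% higher and 15.4% lower. Of 9 listed genes of the epithelial-mesenchymal transition, 5 rose and 3 fell with siRNA5 (median 0.26). With siRNA8, 5 rose and 1 fell (median 0.34). Thus 55.6% were higher with each siRNA, and 33.3% were lower with siRNA5 against 11.1% with siRNA8. Whether HMGA2 acts on these genes was not tested. TGFBR2 had 0.80 (SE 0.060) and 0.92 (SE 0.059), FN1 0.26 (SE 0.080) and 1.26 (SE 0.080), and VIM -0.18 (SE 0.044) with each siRNA, per the authors' deposited tables.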

How the data were processed

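Per the labels, polyadenylated RNA was made into strand-specific libraries, with paired reads of 42 nt. The submitters' processing notes list DESeq2, HTSeq, Picard and STAR with no version, and the build hg19. The deposited signal is a mean normalized count per gene, per the file headers. The means are the same for both comparisons, so they were taken as means over all 6 libraries. The deposited log2 fold changes and their standard errors, the deposited Wald score and the deposited p-values and adjusted p-values are the authors' own, and depth per library is unknown. Counters of reads without a gene or ambiguous took 6.23% and 1.62% of the summed means and stayed out.

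ALYREF is lower in both tables, which sets the direction as knockdown over control, and each table was tied to its siRNA by its number. Group means were solved from the mean and both fold changes, and their SE from the dispersion the tables imply. The difference of the siRNAs uses the root of the summed squared SE. The 3′ UTRs came from GENCODE 29 (GRCh38), which matched 93.5% of symbols; hg19 coordinates were not used. The genes and lists were chosen with earlier results of these data known. Besides the 6 genes, relatives, nearest genes and, per list, up to 2 rises and 2 falls called with both siRNAs at a mean of at least 200 were named; exceptions are marked or serve as markers. Computations used Python 3.11.15, pandas 2.3.3 and SciPy 1.17.1, and were tested on simulated data.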

Additional observations from a re-analysis of the deposited data

Results flagged for a closer look

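HMGA1 differed between the siRNAs, with a log2 fold change of siRNA5 minus siRNA8 of -1.49 (SE 0.219). It had 118 normalized counts with siRNA5 and 330 with siRNA8. IGF2BP2 differed in the same direction, by -0.64 (SE 0.093), with 1137 normalized counts with siRNA5 and 1766 with siRNA8. Both values come from the contrasts by which the genes were chosen, and by the same calculation 32% of all genes differ at an adjusted p under 0.05.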

How the results depend on the processing

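The calls of the 6 genes against NTC stayed the same under every alternative that could be computed; HMGA1 and ARID3B, with means under 500, have no value under the filter at 500. Among genes with a mean of at least 500, 3363 were called with siRNA5 (1412 lower) and 3059 with siRNA8 (1402 lower). Tested against a log2 change within 0.1, 3474 were called with siRNA5 (1826 higher, 1648 lower) and 2939 with siRNA8 (1392 higher, 1547 lower). With the covariance of the shared controls rebuilt, the siRNAs differed at 5615 genes, against 3739 without it, and IGF2BP3 joined HMGA1 and IGF2BP2 among the genes called different. Of the 9 let-7 list genes without CTACCTC, a split chosen after seeing the data, 2 were called higher with siRNA8 (22.2%) and 4 lower. Most of these 9 held the shorter match TACCTCA. Among the 29 with CTACCTC, 19 were called higher (65.5%) and 5 lower. Of the whole list, 55.3% were called higher. The counts over lists numbered 60, marker lists included, and those of the endothelial markers could not move because none of these was measured. Of these 60, 24 moved under the null of 0.1, 14 under the mean of 500, 7 under an adjusted p of 0.01, 2 after centring, 1 under a mean of 50 and none over gene rows alone. The let-7 list is among them: its 29 rises with siRNA5 became 19 and its 21 with siRNA8 became 12 at a mean of 500, where 25 of its 38 genes are left, and the siRNA8 rises 12 and the siRNA5 falls none under the null of 0.1. For the other moves the cause was not tested. No paired analysis was possible because the deposited tables hold no values per library, and leaving out replicates or another tool were not run for the same reason.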
